A study of Mus musculus with 6 samples.

Results

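The Hippo pathway and its YAP/TEAD output are described here through 33 genes, chosen by symbol from the 16423 gene symbols with deposited values. They comprise the core kinases and their adaptors, regulators upstream of them, scaffolds that bind LATS kinases or YAP, the coactivators Yap1 and Wwtr1, the TEAD transcription factors and their cofactors, and 3 target genes. All 33 had a row. The rule used no measured value, but the genes were chosen with earlier results of these data known. Shares set beside a background are therefore descriptive. The cells were C3H10T1/2, an established mouse line labelled as mesenchymal stem cells, which can be turned into fat cells in culture. There were 3 siYBX1 libraries, from cells that received siRNAs against Ybx1 and are labelled as knockdown, and 3 siNC libraries, from wild-type cells that received a control siRNA. Both groups had been driven towards brown adipocytes with 3-isobutyl-1-methylxanthine, dexamethasone, insulin, triiodothyronine, indomethacin and rosiglitazone, the last stage holding triiodothyronine, insulin and rosiglitazone alone. They were transfected on day 4 and harvested 48 h later. The labels do not say whether replicates are separate cultures, so p-values reflect library-to-library spread alone, possibly of technical origin.

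In mammals the kinases MST1 and MST2, with the adaptor SAV1, activate LATS1 and LATS2, which act together with MOB1 proteins. LATS kinases phosphorylate YAP and its relative TAZ, encoded by Wwtr1, and phosphorylated YAP and TAZ are kept in the cytoplasm or degraded. Unphosphorylated YAP and TAZ enter the nucleus and bind TEAD factors, which recognise short DNA motifs and turn on genes such as Ankrd1, Ccn1 and Ccn2. YAP and TAZ also respond to cell shape and actin tension, and TAZ can hold back PPARγ, the master regulator of fat cell formation. Most of this control acts on protein, so transcript levels report on the amounts of the parts and on target genes, and not on kinase activity or on where YAP resides.

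Values are FPKM, fragments scaled by gene length and library total. Library totals, estimated from these values and annotated gene spans, were 31957411 to 35410308 reads in siYBX1 and 34207232 to 35299269 reads in siNC. Ybx1 itself had 59.3, 67.9 and 61.3 FPKM in siYBX1 libraries, against 135, 134 and 129.6 FPKM in siNC libraries, which left 47.3% of the control mean (exact two-sided permutation test, p = 0.1, the smallest that 3 against 3 libraries allow). The siRNA thus lowered Ybx1 without removing it. Values are averages over all cells of a culture, in which fewer cells of a type and less RNA per cell cannot be told apart. Fabp4 and Adipoq, the most abundant of 8 adipocyte markers, averaged 1755 and 584 FPKM in siYBX1, against 1481 and 617 FPKM in siNC. None of the 7 adipocyte markers tested was called by limma (1 higher and 1 lower at an unadjusted p below 0.05, and 1 lower by voom). Another 9 genes, markers of smooth muscle and myofibroblasts, summed to 2052 to 2155 FPKM in siYBX1 and 608 to 675 FPKM in siNC. Of these, 5 of 7 tested rose (71.4%, beside 9.54% of all genes tested), led by Tagln, Actg2 and Myl9 (log2 fold changes 2.53, 1.96 and 1.74). Cnn1 and Myh11, which define mature smooth muscle, averaged 0.0735 and 0.0887 FPKM in siYBX1 and 0.10 and 0.134 FPKM in siNC. Progenitor markers summed to 502 to 525 FPKM in siYBX1 and 548 to 567 FPKM in siNC, with Eng called lower (-0.39), and Runx2, the only osteoblast marker of 4 that could be tested, was called lower as well (-0.39). Endothelial markers summed to at most 0.0578 FPKM in siYBX1 and 0.0667 FPKM in siNC, and macrophage markers to 6.89 to 11.1 FPKM in siYBX1 and 10.8 to 24.4 FPKM in siNC. Among the macrophage markers only Cd68 passed 1 FPKM, with a log2 fold change of -0.69 that limma did not call (adjusted p = 0.0681) and voom called lower, while Ptprc and Adgre1 were at 0 in all siYBX1 libraries. The part of these shifts in the results that follow was not tested. The library siNC replicate 1 stood apart. It held 468 FPKM of Adipoq, against 707 and 676 FPKM in the other siNC libraries, and differed from them by 23.2 and 19.8 chi-square units per gene, where those differed from each other by 4.63. Without it 9 of the 10 members called below were still called, Taok3 being the exception.

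Most transcripts of the pathway were not called, and those that were differed by modest amounts and in both directions. A gene was tested when its mean over the 6 libraries was at least 1 FPKM, and called when limma's Benjamini-Hochberg adjusted p over all 10341 genes tested was below 0.05. Of 32 members tested, 10 were called (31.2%), 5 higher and 5 lower in siYBX1, beside a background of 20.6% of all genes tested. In each direction the members' share was 15.6%, beside 9.54% of all genes higher and 11.1% lower. With values rescaled to TPM the members' split was 2 higher and 6 lower, and that of all genes 662 and 1573, against 987 and 1145 with FPKM. The higher members were Ankrd1 (tested only through its siYBX1 level), Axl, Taok3, Stk4 and Tead1, and the lower ones Amot, Fat4, Limd1, Tead2 and Mob1a. Their log2 fold changes had a median size of 0.28, against 0.29 for all called genes. The median log2 fold change of the 32 tested members was -0.07, against -0.01 for all genes tested, and 10 members had a positive and 22 a negative value. Groups did not overlap for 15 members (46.9%), beside 40.9% of all genes tested. Of these members 7 were higher and 8 lower, beside 19.0% and 21.9% of all genes. Leaving out 1 library at a time gave 2 to 4 higher and 3 to 5 lower calls, while the share of all genes called moved between 11.6% (siYBX1 replicate 1 left out) and 19.6% (siNC replicate 1 left out). The fewest higher calls, 2, were left when replicate 2 or replicate 3 of siYBX1 was dropped, and the fewest lower calls, 3, when replicate 1 of siYBX1 was dropped. Dropping siNC replicate 3 left 3 of each.

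**Figure D1:**
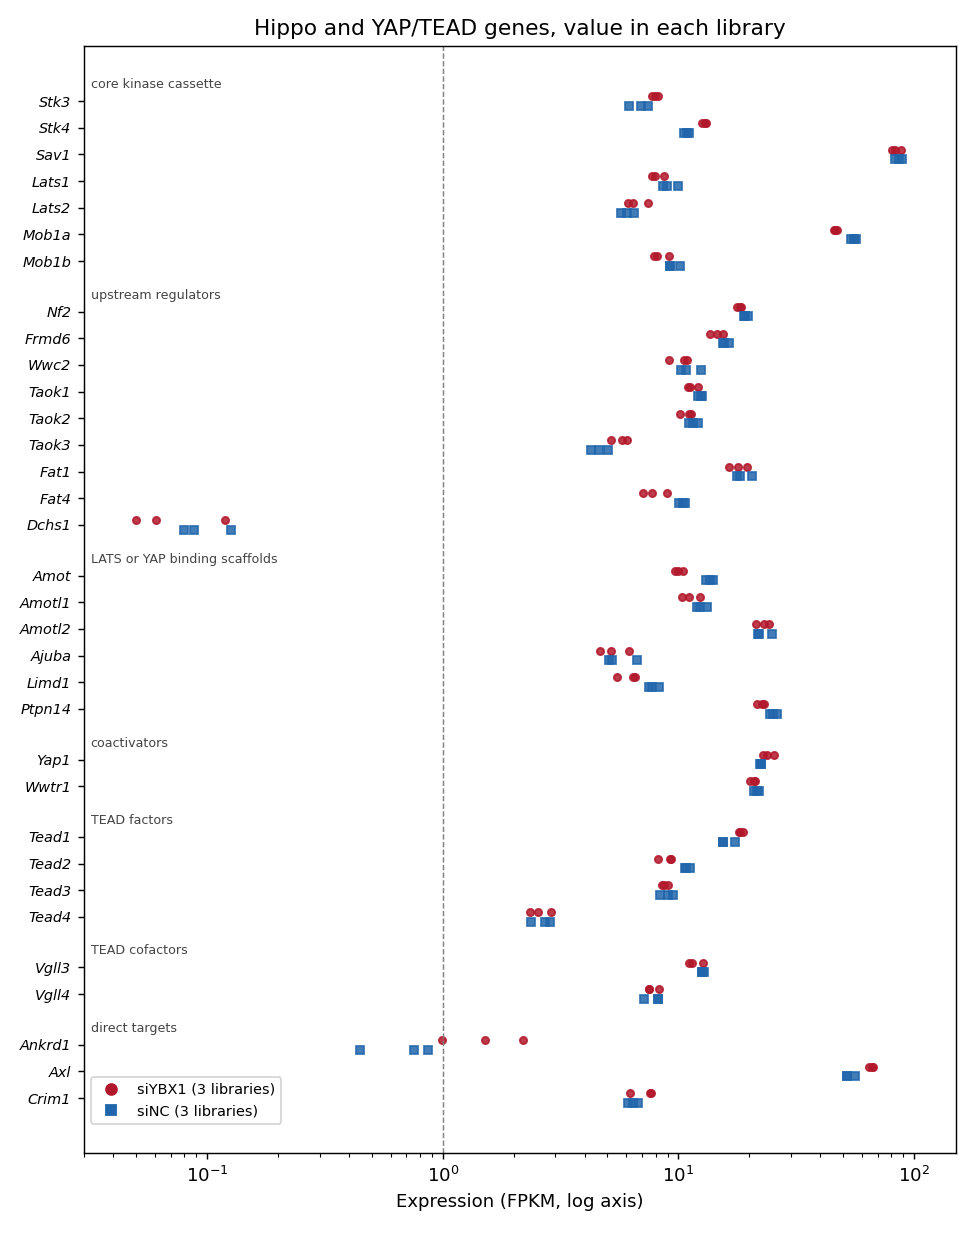
FPKM of the 33 genes in each library on a log axis, siYBX1 libraries as red circles above siNC libraries as blue squares, grouped by role; the dashed line marks the minimum mean of 1 FPKM for testing. Apart from Dchs1 and Ankrd1, all values lie between 2.34 and 89.1 FPKM. Dchs1 lies below 0.13 FPKM in all 6 libraries, and Ankrd1 has the largest ratio between group means, 2.27.

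**Figure D2:**
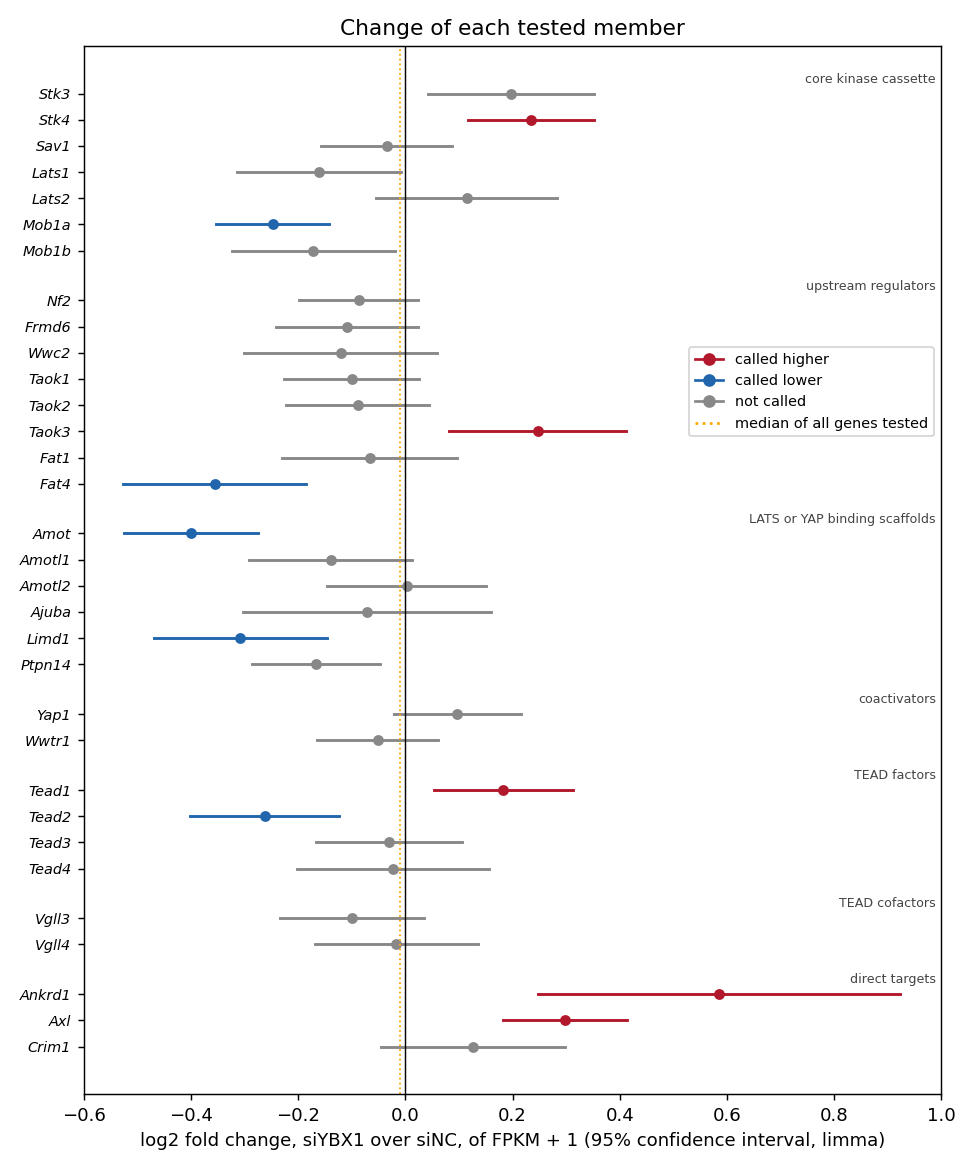
log2 fold change of FPKM + 1 (siYBX1 over siNC) with its 95% confidence interval from limma for the 32 tested genes, by role; red marks genes called higher, blue genes called lower and grey genes not called. The 10 called genes are split evenly by direction, and both coactivators, Yap1 and Wwtr1, are grey with intervals that include 0.

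Levels spanned a wide range. The most abundant members were Sav1, with 84.0 ± 4.13 FPKM in siYBX1 and 86.0 ± 3.13 FPKM in siNC (SD, n = 3 each, as for all ± values here), Axl and Mob1a. The least abundant was the atypical cadherin Dchs1, with 0.0764 ± 0.0372 FPKM in siYBX1 and 0.0980 ± 0.0251 FPKM in siNC, which is 20 to 50 reads in any library. It fell under the minimum and was not tested. Its binding partner Fat4 averaged 7.93 FPKM in siYBX1 and 10.4 FPKM in siNC, so that of this ligand and receptor pair, whose link to Hippo signalling is best known from Drosophila, only 1 side was present at more than a trace.

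Within the core kinase cassette 1 of the MST kinases rose and 1 of the MOB1 adaptors fell. These were 2 of 7 tested genes, a called share of 28.6%, beside 20.6% of all genes. Stk4, which encodes MST1, had 13.0, 12.6 and 13.1 FPKM in siYBX1 libraries, against 11.1, 10.6 and 10.8 FPKM in siNC libraries. The groups did not overlap, and Stk4 rose 1.19-fold in mean FPKM (limma, log2 fold change 0.23 with an SE of 0.05, adjusted p = 0.0121). Stk3, which encodes MST2, had 8.21, 7.73 and 7.99 FPKM in siYBX1 libraries and 6.16, 7.46 and 6.91 FPKM in siNC libraries. These groups did not overlap either, but Stk3 was not called (0.20, adjusted p = 0.0706, limma). It passed after a correction for gene length (0.27, adjusted p = 0.0317), and Stk4 missed the threshold with TPM (0.19, adjusted p = 0.0507). Mob1a, the more abundant of the MOB1 genes, had 47.3, 46.1 and 45.9 FPKM in siYBX1 libraries and 54.1, 56.5 and 55.4 FPKM in siNC libraries. With groups clearly apart, it fell by limma's test (log2 fold change -0.25 with an SE of 0.05, adjusted p = 0.00584). Mob1b was also lower in every siYBX1 library than in any siNC library, at 8.35 ± 0.658 FPKM in siYBX1 and 9.53 ± 0.556 FPKM in siNC, without being called (-0.17, adjusted p = 0.0987). Summed over each pair, the MST genes had 20.9 ± 0.491 FPKM in siYBX1 and 17.7 ± 0.406 FPKM in siNC, and the MOB1 genes 54.8 ± 0.748 FPKM in siYBX1 and 64.9 ± 1.65 FPKM in siNC.

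The LATS kinases and the scaffold Sav1 were not called. Lats1 had 7.94, 7.70 and 8.65 FPKM in siYBX1 libraries and 10.0, 8.91 and 8.63 FPKM in siNC libraries, which overlap (log2 fold change -0.16, adjusted p = 0.121, limma). Lats2, which is itself a target of YAP in other cells, had 6.12, 6.43 and 7.46 FPKM in siYBX1 libraries and 6.47, 5.72 and 6.03 FPKM in siNC libraries (0.11, adjusted p = 0.307). Their sum overlapped between groups, at 14.8 ± 1.16 FPKM in siYBX1 and 15.3 ± 1.05 FPKM in siNC, while the share of Lats2 in it was 43.5% to 46.3% in siYBX1 and 39.1% to 41.1% in siNC. Sav1 differed by -0.03, with a 95% confidence interval of -0.16 to 0.09 (adjusted p = 0.692, limma).

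Among the upstream regulators 1 of 8 tested genes rose and 1 fell, a called share of 25.0% that is near the 20.6% of all genes. Taok3, a TAO kinase of the group that phosphorylates MST kinases, had 5.19, 6.06 and 5.76 FPKM in siYBX1 libraries, against 4.61, 5.01 and 4.25 FPKM in siNC libraries. The lowest siYBX1 library lay just above the highest siNC library, and the call was narrow (limma, log2 fold change 0.25 with an SE of 0.07, adjusted p = 0.0403). It was lost on dropping replicate 2 or 3 of siYBX1 (adjusted p of 0.138 and 0.0970) or replicate 1 or 3 of siNC (0.0621 and 0.140), with TPM (0.0952), with a replicate block (0.0640) and without a filter (0.114). Fat4, a very large atypical cadherin, had 7.75, 7.07 and 8.98 FPKM in siYBX1 libraries and 10.7, 10.5 and 10.0 FPKM in siNC libraries. It fell to 76.3% of the siNC mean (limma, -0.36 with an SE of 0.08, adjusted p = 0.0101), and the call held without each library in turn but not without a filter on low values (adjusted p = 0.0567). Its relative Fat1 was not called (-0.07, adjusted p = 0.552). The related kinases Taok1 and Taok2, the merlin gene Nf2, the FERM-domain gene Frmd6 and the KIBRA relative Wwc2 had log2 fold changes between -0.12 and -0.09, with adjusted p from 0.213 to 0.313. Of these only Nf2 had groups that did not overlap, with 18.1 ± 0.385 FPKM in siYBX1 and 19.3 ± 0.405 FPKM in siNC. Of the summed FPKM of the TAO kinases, Taok3 made up 20.3% ± 0.995 in siYBX1 and 16.2% ± 0.928 in siNC.

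The largest fall was in a scaffold. Amot encodes angiomotin, which binds YAP and TAZ and holds them at junctions and actin filaments. It had 9.92, 9.65 and 10.5 FPKM in siYBX1 libraries, against 13.1, 14 and 13.6 FPKM in siNC libraries, with a wide gap between the groups. It fell to 74.0% of the siNC mean (limma, log2 fold change -0.40 with an SE of 0.06, adjusted p = 0.00118), and it was called under all 15 other settings tried. Its paralogs were not called. Amotl1 had a log2 fold change of -0.14 (adjusted p = 0.171), and Amotl2, a YAP target in many cells, had 22.9 ± 1.42 FPKM in siYBX1 and 22.9 ± 1.72 FPKM in siNC (95% confidence interval of the log2 fold change -0.15 to 0.15). The share of Amot in the summed angiomotin transcripts was 22.3% to 23.4% in siYBX1 and 25.6% to 29.0% in siNC.

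The LIM-domain proteins AJUBA and LIMD1 bind LATS kinases and restrain them. Limd1 had 5.47, 6.43 and 6.54 FPKM in siYBX1 libraries and 7.49, 7.74 and 8.27 FPKM in siNC libraries. It fell without overlap (limma, log2 fold change -0.31 with an SE of 0.07, adjusted p = 0.0148), though the call was lost on dropping replicate 1 of siYBX1 (-0.24, adjusted p = 0.0541) or replicate 3 of siNC (-0.27, adjusted p = 0.0576), and without a filter (0.0643). Ajuba was not called, with a wide interval (-0.07, 95% confidence interval -0.30 to 0.16). Ptpn14, a phosphatase that binds YAP, had 22.6, 21.5 and 23.2 FPKM in siYBX1 libraries and 26.3, 24.4 and 25.3 FPKM in siNC libraries. The groups did not overlap and the value lay just short of the threshold (-0.17, adjusted p = 0.0517, limma). It passed with TPM (adjusted p = 0.0284) and was at -0.10 (adjusted p = 0.183) after correction for gene length.

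Neither coactivator was called, by limma or by voom, or had an unadjusted p below 0.05. Yap1 had 23.8, 25.4 and 22.9 FPKM in siYBX1 libraries and 22.3, 22.5 and 22.4 FPKM in siNC libraries. Each siYBX1 library lay above each siNC library, by little (log2 fold change 0.10, 95% confidence interval -0.02 to 0.22, adjusted p = 0.217, limma). Wwtr1 had 21.1, 20.1 and 21.0 FPKM in siYBX1 libraries and 22, 21.6 and 20.9 FPKM in siNC libraries, with overlap (-0.05, 95% confidence interval -0.16 to 0.06, adjusted p = 0.500). Both were thus present at like levels per length in these cells, and the ratio of Yap1 to Wwtr1 was 1.16 ± 0.0888 in siYBX1 and 1.04 ± 0.0274 in siNC.

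Among the TEAD factors Tead1 rose and Tead2 fell, while the summed level of the family overlapped between groups. Tead1, the most abundant, had 18.3, 18.0 and 18.8 FPKM in siYBX1 libraries and 17.3, 15.5 and 15.5 FPKM in siNC libraries. Without overlap, it passed narrowly (limma, log2 fold change 0.18 with an SE of 0.06, adjusted p = 0.0499). The adjusted p was 0.0987 to 0.159 when any siYBX1 library or replicate 2 or 3 of siNC was left out, 0.183 with TPM, 0.108 with a replicate block and 0.0881 without a filter, and lay just above the threshold with a pseudocount of 0.1. Tead2 had 8.18, 9.25 and 9.29 FPKM in siYBX1 libraries and 10.6, 10.8 and 11.2 FPKM in siNC libraries. It fell without overlap (limma, -0.26 with an SE of 0.06, adjusted p = 0.0155), a call lost on dropping replicate 1 of siYBX1 (adjusted p = 0.0628) or replicate 3 of siNC (0.0597). Tead3 (8.75 ± 0.232 FPKM in siYBX1, 8.96 ± 0.560 FPKM in siNC) and Tead4 (2.58 ± 0.270 FPKM in siYBX1, 2.64 ± 0.254 FPKM in siNC) overlapped, with adjusted p of 0.759 and 0.869. Summed over the 4 genes, TEAD transcripts had 38.6 ± 0.981 FPKM in siYBX1 and 38.5 ± 1.67 FPKM in siNC. Tead1 made up 47.6% ± 1.37 of that sum in siYBX1 and 41.7% ± 1.36 in siNC, and Tead2 23.1% ± 1.06 in siYBX1 and 28.2% ± 1.6 in siNC. Neither share overlapped between groups. The shares of Amot, Amotl2, Taok1 and Taok3 in their families did not overlap either. The same held within the pairs Yap1 and Wwtr1, Lats1 and Lats2, and Fat1 and Fat4. In a pair each share fixes the other, so both state the same result. The shares of Tead3, Tead4, Amotl1, Taok2 and of the MST, MOB1 and Vgll genes overlapped. Such shares were computed for 9 families and are given without a test or a background.

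**Figure D3:**
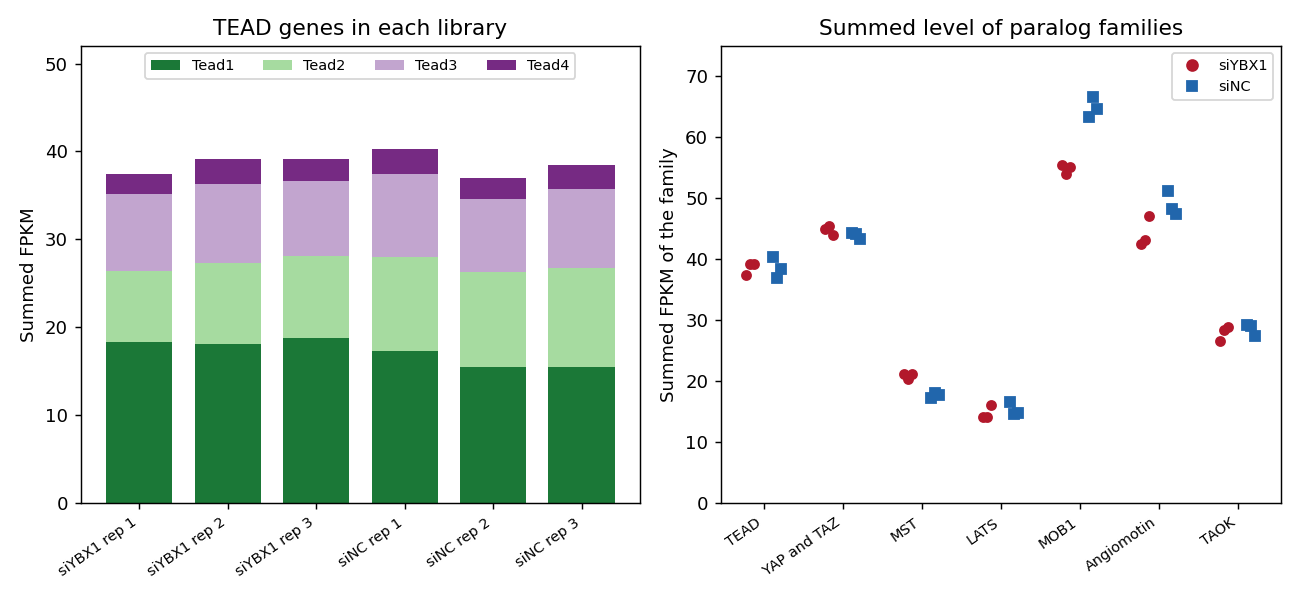
Left, FPKM of the TEAD genes stacked for each library, siYBX1 before siNC; right, summed FPKM of paralog families in each library, siYBX1 as red circles left of siNC as blue squares. The TEAD stacks reach 36.9 to 40.3 FPKM in all 6 libraries with a taller Tead1 block in siYBX1, and of the families drawn MST lies higher, and MOB1 and angiomotin lower, in siYBX1 without overlap.

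Neither TEAD cofactor was called by limma or voom, and neither had an unadjusted p below 0.05. Vgll4, which competes with YAP for TEAD, had 7.74 ± 0.432 FPKM in siYBX1 and 7.85 ± 0.597 FPKM in siNC (adjusted p = 0.884, limma). Vgll3, a cofactor also known from fat cell differentiation, had 11.8 ± 0.848 FPKM in siYBX1 and 12.7 ± 0.161 FPKM in siNC (-0.10, adjusted p = 0.265).

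Of the 3 members listed as direct targets, 2 rose (66.7%, beside 9.54% of all genes tested called higher) and the other did not pass. That share counts Ankrd1, which reached testing only through its siYBX1 level, so it is not a like comparison with the background. It also leaves out Amotl2, Lats2 and Ptpn14, members of a published YAP/TAZ target signature listed under other roles, which were not called. Ankrd1 encodes an ankyrin-repeat protein of muscle cells that shuttles to the nucleus. It had 0.993, 2.19 and 1.51 FPKM in siYBX1 libraries, against 0.863, 0.447 and 0.754 FPKM in siNC libraries, from 56, 137 and 89 reads in siYBX1 and 53, 27 and 47 reads in siNC. Every siYBX1 library was above every siNC library, but the nearest values were close. Its mean was 1.57 FPKM in siYBX1 and 0.688 FPKM in siNC. It thus passed the minimum of 1 FPKM for testing only through the group where it is high. It was the largest change among the members, 2.27-fold in mean FPKM (limma, log2 fold change 0.59 with a 95% confidence interval of 0.25 to 0.92, adjusted p = 0.0223). At its low level the pseudocount understates the change, and with a pseudocount of 0.1 the log2 fold change was 1.05. The call was lost on dropping replicate 3 of siYBX1 (0.59, adjusted p = 0.0624) or replicate 2 of siNC (0.48, adjusted p = 0.0639), and with replicate 2 of siYBX1 dropped its mean was too low for testing. It was also lost without a filter (adjusted p = 0.113) and with block and length correction (0.0618). Axl, a receptor tyrosine kinase for the ligand GAS6, had 64.5, 66.2 and 67.1 FPKM in siYBX1 libraries and 56.4, 52.1 and 52 FPKM in siNC libraries. It rose 1.23-fold, with a clear gap between groups (limma, 0.30 with an SE of 0.05, adjusted p = 0.00379), and was called under all 15 other settings. Crim1, a transmembrane protein that binds bone morphogenetic proteins, had 6.22, 7.54 and 7.62 FPKM in siYBX1 libraries and 6.73, 6.14 and 6.42 FPKM in siNC libraries, which overlap (0.13, adjusted p = 0.268).

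**Figure D4:**
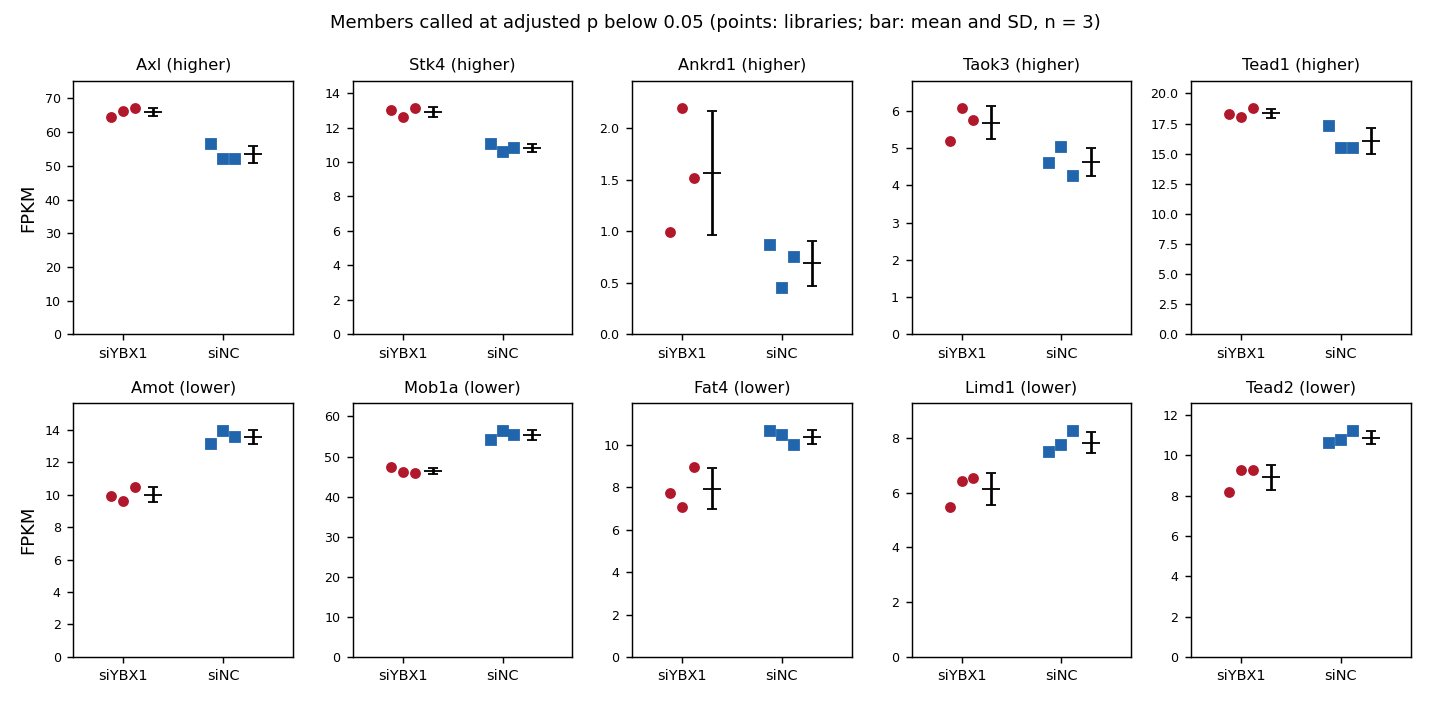
FPKM of the 10 called genes in each library, siYBX1 (red circles) left of siNC (blue squares), with the mean and SD (n = 3) as black bars and axes from 0. In all 10 panels the groups do not overlap; the gap is widest against the spread for Axl, Stk4, Amot and Mob1a, and the siYBX1 values of Ankrd1 range from 0.993 to 2.19 FPKM.

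TEAD factors bind the 6-letter motif CATTCC, or GGAATG when read on the other strand, and the sequence upstream of the called targets is shown for that motif, which stands in capitals. The 250 bases before the start of each gene come from RefSeq on GRCm38.p6, another build than the submitters' GRCm39, and run 5′ to 3′ on the gene's strand. The Ankrd1 stretch is chr19:36119845-36120094 and the Axl stretch chr7:25788734-25788983, both on the minus strand. Ankrd1 holds the motif at 2 places and Axl at 1. The target that was not called, Crim1, also holds it once.
Ankrd1: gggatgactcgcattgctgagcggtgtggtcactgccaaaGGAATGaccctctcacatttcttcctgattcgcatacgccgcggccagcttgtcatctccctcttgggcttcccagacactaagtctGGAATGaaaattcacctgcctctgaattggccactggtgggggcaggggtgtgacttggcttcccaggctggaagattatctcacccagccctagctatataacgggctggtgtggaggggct
Axl: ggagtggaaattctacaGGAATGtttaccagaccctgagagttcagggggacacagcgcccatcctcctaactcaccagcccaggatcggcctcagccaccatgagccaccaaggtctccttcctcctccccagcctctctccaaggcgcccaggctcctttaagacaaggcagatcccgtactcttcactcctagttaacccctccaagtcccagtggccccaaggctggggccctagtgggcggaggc

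The same letters were common at the starts of the other pathway genes. Promoter windows of 250 bases before to 50 after a start were at hand for 28 members, and 16 of these (57.1%) held the motif on either strand in at least 1 window, against 1925 of 12863 genes of the table (15.0%). With 1 window per gene the counts were 13 of 24 members and 1291 of 10405 genes (54.2% and 12.4%). A match is a description of letters and does not show a bound site. No window was at hand for Stk3, Dchs1, Limd1, Tead1 and Tead4, so the called members Tead1 and Limd1 were not searched. The motif was found in 2 of 4 members called higher, 1 of 4 called lower and 13 of 20 not called. Over all genes it was found in 15.3% of those called higher and 11.7% of those called lower. Among the YAP/TAZ targets outside the members it was found in 1 of 9 (11.1%), below the 15.0% of all genes. Windows of 30 letters are given for a kinase adaptor that fell (Mob1a, chr6:83325818-83325847, plus strand) and for members that were not called, among them both coactivators: Yap1 (chr9:8004720-8004749, minus strand), Wwtr1 (chr3:57576029-57576058, minus strand), Amotl2 (chr9:102717727-102717756, plus strand), Ptpn14 (chr1:189728110-189728139, plus strand), Vgll3 (chr16:65815114-65815143, plus strand) and Crim1 (chr17:78200157-78200186, plus strand).
Mob1a: tggccagaatagCATTCCtttaggagaaga
Yap1: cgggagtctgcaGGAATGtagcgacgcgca
Wwtr1: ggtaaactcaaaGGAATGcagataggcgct
Amotl2: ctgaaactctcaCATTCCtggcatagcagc
Ptpn14: cctccccggacgCATTCCtggcccgcccag
Vgll3: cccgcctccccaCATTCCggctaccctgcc
Crim1: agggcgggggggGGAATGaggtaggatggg

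Further YAP/TAZ targets were taken from a published target signature, leaving out its members above. Of 16 such genes 12 were abundant enough to test, and 2 rose and none fell by limma (16.7% called, beside the background of 20.6%). At an unadjusted p below 0.05 there were 5 higher and 2 lower, a criterion for which no count over all genes is given. By voom there were 3 higher and 0 lower, beside 1076 higher and 1390 lower of all 12177 genes that voom took. The called genes were the matricellular genes Ccn2, 34.3 ± 4.64 FPKM in siYBX1 and 12 ± 1.76 FPKM in siNC (adjusted p = 2.93e-05, limma), and Ccn1, 25.1 ± 2.92 FPKM in siYBX1 and 17.3 ± 2.66 FPKM in siNC (adjusted p = 0.00660). The median log2 fold change of the 12 was 0.12, against -0.01 for all genes tested, with 8 positive and 4 negative. Of the signature genes, members included, Ccn2, Ankrd1, Ccn1 and Axl rose. Amotl2, Lats2, Crim1 and Ptpn14, members of the same signature, were not called. Neither were the 10 other tested genes of the signature outside the members. In siYBX1 the library with the highest Ankrd1, replicate 2, also had the highest Ccn2 and Ccn1, at 39.3 and 28.4 FPKM. Axl was highest in replicate 3 of siYBX1, at 67.1 FPKM. In siNC Ankrd1 and Ccn1 were highest in replicate 1 (0.863 and 20.3 FPKM), but Ccn2 in replicate 3 (13.8 FPKM). After correction for gene length 4 of the 12 were higher, as were 1079 of all 10341 genes.

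Regulators of the pathway outside the members were covered by lists of polarity proteins and other kinases, of the STRIPAK phosphatase complex, which counteracts MST kinases, and of 14-3-3 proteins, which hold phosphorylated YAP. Of 45 tested genes 3 rose and 5 fell. The share called was 17.8%, beside 20.6% of all genes tested, and the median log2 fold change was 0.00079, beside -0.01. With length correction 8 were higher, beside 1079 of all 10341 genes (987 without it). With a replicate block 3 were lower, and 1 with block and length correction, beside 739 and 673 of all genes (1145 without either). Rassf3, of the RASSF family that binds MST kinases, had 11.9, 12.2 and 12.8 FPKM in siYBX1 libraries and 9.13, 9.42 and 8.47 FPKM in siNC libraries (log2 fold change 0.41, adjusted p = 0.00132, limma). Its relative Rassf1 rose as well (0.20, adjusted p = 0.0339). The polarity genes Dlg5 and Pard3 fell (-0.28 and -0.21, adjusted p = 0.0109 and 0.0453). In the STRIPAK list 2 of 13 tested genes fell and none rose by limma (2 higher at an unadjusted p below 0.05, 0 by voom), a called share of 15.4% that lies below the 20.6% of all genes. Slmap, the adaptor that recruits MST kinases to the complex, had 11.8, 11.4 and 11.9 FPKM in siYBX1 libraries and 15.0, 14.6 and 13.7 FPKM in siNC libraries (-0.28, adjusted p = 0.00731), and the striatin gene Strn was at -0.24 (adjusted p = 0.0167). Of 6 tested 14-3-3 genes 1 rose and 1 fell, a called share of 33.3%, beside 20.6% of all genes. Ywhae rose to 118 ± 3.34 FPKM in siYBX1, against 96.1 ± 1.87 FPKM in siNC (adjusted p = 0.00339, limma). Ywhag fell to 86.6 ± 3.42 FPKM in siYBX1, against 107 ± 0.788 FPKM in siNC (adjusted p = 0.00295, limma).

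Gene length moved with the comparison. The tested members had a median length of 5594.5 bases, as recovered from the deposited values, against 3437 bases for all genes tested, and 40.6% of them lay in the longest of 5 equal length classes. In that class 3.48% of all genes were called higher and 14.4% lower, with a median log2 fold change of -0.07, against 18.9% higher, 6.23% lower and a median of 0.08 in the shortest class. After correction for length the median of the members was -0.03, and 6 were higher and 5 lower. All 10 called members remained among these 11, with Stk3 the addition. The correction brought Fat4, whose length was 16791 bases, to -0.28 (adjusted p = 0.0121).

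**Figure D5:**
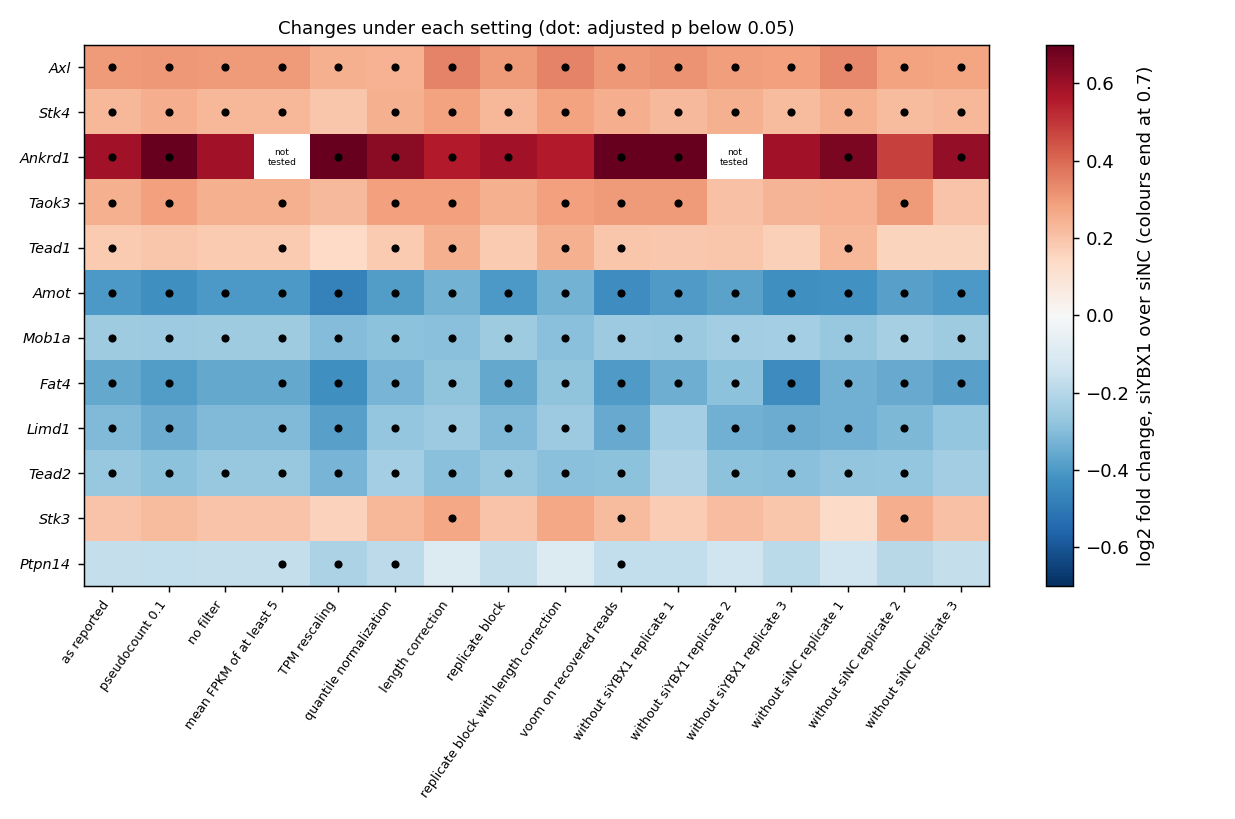
log2 fold change (colour, siYBX1 over siNC) of the 10 called genes and of Stk3 and Ptpn14 under each setting, with a dot where the adjusted p is below 0.05. Axl, Amot and Mob1a carry a dot in every column, Tead1 and Taok3 lose it in many, and no gene changes the sign of its colour.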

How the data were processed

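Per the labels' protocols, RNA came from Trizol extracts (1.3 µg per library). The authors deposited FPKM values. Of tools and builds, HISAT2, HTSeq, fastp and GRCm39 appear in the submitters' processing notes. Versions, strandedness and the treatment of reads shared by paralogs are not given in the sources used here, so paralogs such as the MOB1, TEAD and 14-3-3 genes, and overlapping antisense genes, are uncertain. Whole reads and gene lengths were recovered from the steps of the FPKM values (tolerance 0.02 reads) for 16422 of 16423 genes. The scale of the library totals rests on RefSeq gene spans of GRCm38.p6, another build than the submitters' GRCm39, at 162 to 181 genes per library whose span matched the steps, and each gene length is the smallest that gives whole reads. Totals, reads and lengths are therefore estimates. At 2 kb, 1 read is worth 0.0141 to 0.0156 FPKM.

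Differences were tested in R 4.3.3 by limma 3.58.1 (trended variance, two-sided, no covariates) on log2(FPKM + 1) where a gene's 6 libraries averaged 1 FPKM or more. Fold changes on this scale understate those of low genes. When checked on simulated data (10341 genes, 50 changed per size), 86% of 1.25-fold and 100% of 1.5-fold changes were recovered, and 18 of 211 calls were false. The simulation gave every gene the same dispersion, 0.003, and held no outlying library and no trend with gene length. Its rates therefore do not carry over to the measured libraries. The loess correction for length had a span of 0.3, and voom took genes that averaged 10 reads or more. Figures and summaries used Python 3.11.15.

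The members and lists were chosen with earlier results of these data known. All members are named, with fuller statistics for called ones. From each other list the text names the 3 largest called changes in each direction, or, where none was called, abundant members. Pals1 was matched as Mpp5. Crb3, Vgll1, Vgll2, Stk26 and Cdh5 were not analysed here. The labels do not say whether same-numbered libraries are paired.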

Additional observations from a re-analysis of the deposited data

How the results depend on the processing

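All 10 called members kept their direction under all 15 other settings in which they were tested, and Axl, Amot and Mob1a also stayed called. Of 477 values of single members under other settings, 422 kept direction and side of the threshold, 27 were no longer called, 7 became called and 21 changed sign, all of the last in members not called. Members called higher, 5 as reported, numbered 2 without a filter, 2 with TPM and 3 with a replicate block, and those called lower numbered 3 without a filter. Leaving out 1 library gave 2 to 4 higher and 3 to 5 lower. All called genes numbered 2132, 1241 without a filter, 1346 with a replicate block, 1206 with the block and length correction, and 1201 to 2026 without 1 library. Among other targets called higher, there was 1 without a filter and 4 with length correction (2 to 3 without 1 library), and among those called lower, 1 with TPM (0 to 1 without 1 library). Other regulators called higher numbered 8 with length correction, and those called lower 3 with the replicate block, 1 with block and length correction, and 3 to 5 without 1 library. Ybx1 stayed called, at -1.16 to -1.03. The cause of these shifts was not tested.

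Correlations between same-numbered libraries, of deviations from their group means, were -0.31, -0.13 and -0.25. No library correlated best with its own number. With 3 libraries per group these values cannot decide whether same-numbered libraries shared a culture or a day. With the replicate number as a block Tead1 and Taok3 were not called (adjusted p = 0.108 and 0.0640, limma). Signs changed for Fat1 (0.0099 with length correction, with or without the block), Amotl2 (-0.049 with TPM, -0.0043 with quantile normalization, -0.037 to 0.061 without 1 library), Ajuba (-0.16 to 0.034 without 1 library), Tead3 (-0.074 to 0.0076), Tead4 (0.035 with quantile normalization, -0.080 to 0.027 without 1 library) and Vgll4 (0.0096 with quantile normalization, 0.058 with length correction with or without the block, -0.075 to 0.013 without 1 library). Reads limit Dchs1 and Ankrd1. Ankrd1 was not tested with a minimum of 5 FPKM or without siYBX1 replicate 2. Where 1 library is left out of a group, 2 remain, and limma pools the spread.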
